A study of Mus musculus with 6 samples.

Results

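Bone morphogenetic proteins (BMPs) and the Id genes they induce were read in the apical furcation tissue of the mouse molar, as a named set of 10 genes among the 23594 genes of the deposited table. The set holds 6 ligand genes (Bmp2, Bmp3, Bmp4, Bmp5, Bmp6 and Bmp7) and 4 Id genes (Id1, Id2, Id3 and Id4), chosen by name, and all 10 were abundant enough to be tested. RNA was sequenced from tissue cut by laser from mandibular first molars of C57BL/6 mice at an age of 4.5 days, in 3 control libraries labelled wild type and 3 Lhx6-/- libraries. Lhx6 encodes a LIM homeodomain transcription factor, and the Lhx6-/- animals carry 2 copies of an Lhx6-CreER knock-in that abolishes the function of the gene. According to the methods, controls were littermates, each library pooled the tissue of several molars, and both sexes were collected, while the sex make-up of the pools is not given in the sources used here. The estimated counts of a library summed to between 60132323 and 76157433.

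BMPs are secreted dimers of the TGF-beta superfamily. They bring type I and type II serine/threonine kinase receptors together at the cell surface, and the type I receptor then phosphorylates Smad1, Smad5 and Smad9, which enter the nucleus with Smad4. The Id genes are classical direct targets of these Smads, and their products bind E proteins, partners of tissue-specific basic helix-loop-helix factors, and keep them from DNA. In teeth, BMPs carry signals between epithelium and mesenchyme and take part in odontoblast differentiation and root formation.

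Lhx6, the targeted gene, was read first. Its transcript stood at 27.8, 18.2 and 21.9 CPM (counts per 1000000 counts of the library) in control replicates 1 to 3. In the Lhx6-/- replicates, in the same order, it stood at 12.8, 9.82 and 10.5 CPM, so every Lhx6-/- library lay below every control library. The mean Lhx6-/- level was 48.8% of the control mean, so a part of the transcript remained, and a count per gene cannot tell which exons it holds. The adjusted p of Lhx6 was 0.0210 in edgeR and missed 0.05 in 8 of 22 other fits. Markers of dental mesenchyme were present in all libraries, and those of enamel-forming epithelium were abundant, with Amelx, which encodes the enamel matrix protein amelogenin, at a mean of 102428 CPM in control and 94192 CPM in Lhx6-/- tissue. The libraries therefore held RNA of epithelium and mesenchyme together, and the source cells of a ligand cannot be read from them. In such bulk tissue fewer cells of a type and less RNA per cell cannot be told apart.

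The members differed widely in level before genotype was considered. Levels were compared between genes as CPM per 1000 exonic bases, with exon lengths from GENCODE vM21. Id3 was the highest, with a control mean of 70.6 ± 1.28 (SD, n = 3 libraries) on this scale, followed by Id1 at 48.9 ± 0.69. Bmp4, a ligand long known from dental mesenchyme, was the most abundant ligand at 28.9 ± 1.5. Id2 and Bmp7 shared the next place at 22.4 ± 1.40 and 22.4 ± 1.02, and their control ranges overlapped. Bmp3, an atypical member that can oppose the others at type II receptors, followed at 11.6 ± 0.99. Id4 (7.01 ± 1.11) and Bmp2 (6.64 ± 0.94) overlapped in control tissue, as Bmp2 did with Bmp6 by its lowest library, 5.67 against a Bmp6 high of 6.13. Bmp6 stood at 5.80 ± 0.52 and Bmp5 was the lowest at 4.63 ± 0.47 CPM per 1000 exonic bases, and their control ranges did not overlap.

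In Lhx6-/- tissue the top of this order was unchanged, with Id3 at 72.2 ± 3.06, Id1 at 48.0 ± 3.27 and Bmp4 at 28.3 ± 2.69 CPM per 1000 exonic bases. Bmp2 stood at 11.3 ± 0.55, in place 6 of the 10 genes where it had been in place 8 in control tissue. Id4, at 5.48 ± 0.20, moved from place 7 to place 9. Bmp5 was again the lowest at 4.25 ± 0.46.

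**Figure D1:**
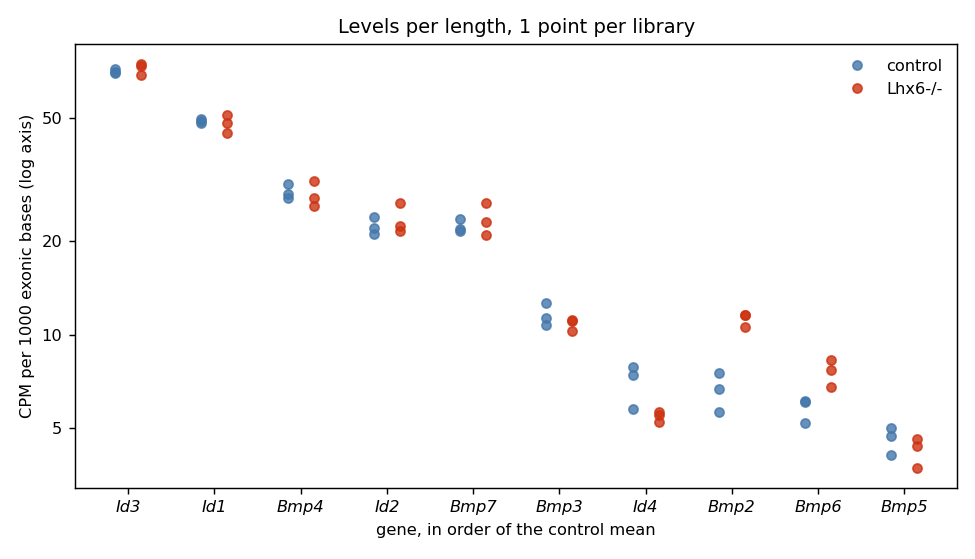
Levels of the 10 genes in CPM per 1000 exonic bases (vertical log axis), 1 point per library, with genes in the order of the control mean. Id3 and Id1 stand at the top in both genotypes, while the 3 Lhx6-/- points of Bmp2, at 10.6 to 11.6, lie above its 3 control points, at 5.67 to 7.54.

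Of the 10 genes, 1 passed an adjusted p of 0.05 between genotypes in edgeR (quasi-likelihood test, Benjamini-Hochberg over all 20114 tested genes), a level that 0.403% of all tested genes passed. That gene was Bmp2. In edgeR the same gene alone met the rule of the study's methods, a change of 1.5-fold or more with an unadjusted p under 0.05. Of tested genes 3.28% met it in this fit. The study applied the rule to its own comparison, so its genes can differ from those counted here. With the Y-linked or the odontoblast covariate described further on, the 1 member that met this rule was Bmp6 in place of Bmp2. An unadjusted p under 0.05 in edgeR was reached by 3 members, Bmp2, Bmp6 and Id4, where 9.81% of tested genes reached it. These were also the 3 members whose control and Lhx6-/- libraries did not overlap, against 15.5% of tested genes. Of them Bmp2 and Bmp6 had all Lhx6-/- libraries above control (7.86% of tested genes) and Id4 had all of them below (7.68%). Across the 10 members the median log2 fold change was 0.00, and across all tested genes it was also 0.00.

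**Figure D2:**
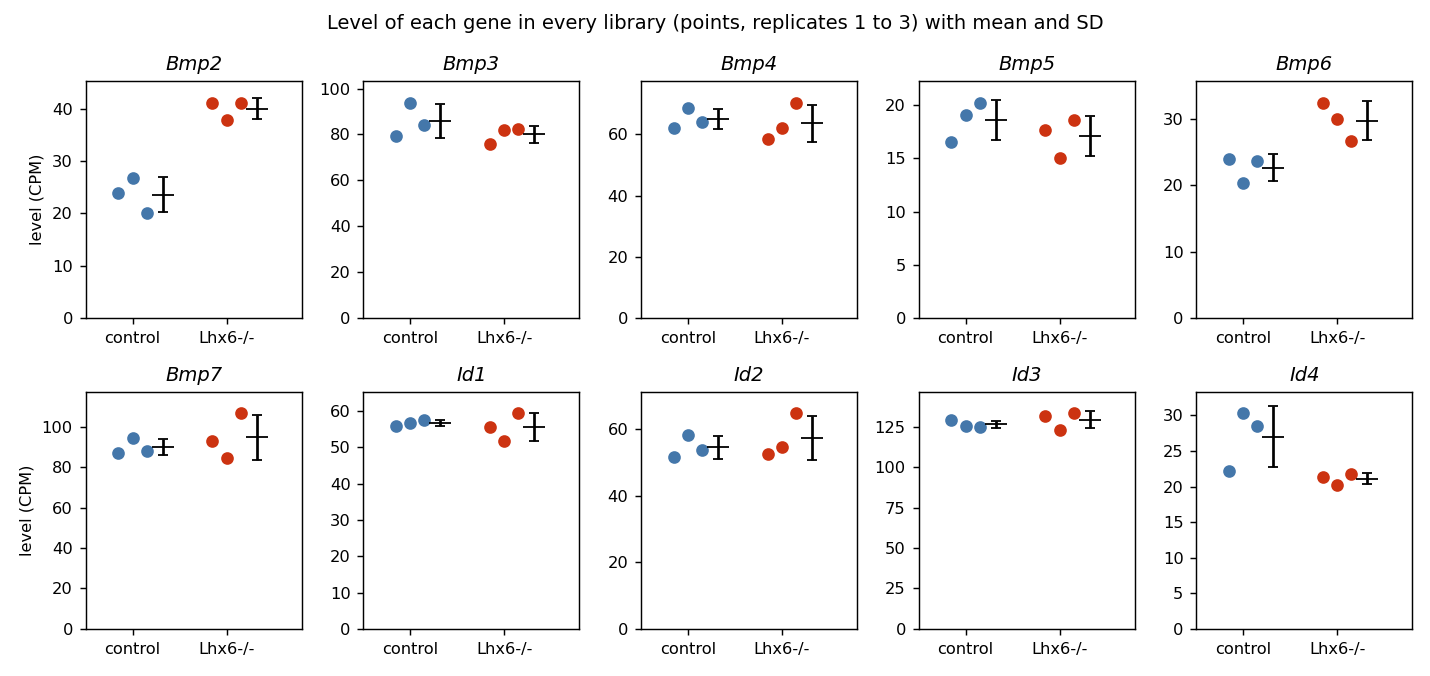
Level in CPM (vertical axes, from 0) of each gene in control (blue) and Lhx6-/- (red) replicates 1 to 3 from left to right, with the mean and SD of the 3 libraries in black. The genotypes separate for Bmp2 and Bmp6, which are higher in Lhx6-/-, and for Id4, which is lower, and they overlap for the other 7 genes.

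Among the ligands, Bmp2 rose. Bmp2, known for inducing bone and for its place in odontoblast differentiation, lies on chromosome 2 from 133552159 to 133562885 on the plus strand of mm10. It stood at 23.8, 26.8 and 20.1 CPM in the 3 control replicates, in that order, from 1483, 1791 and 1191 estimated counts. In the 3 Lhx6-/- replicates it stood at 41.1, 37.8 and 41.1 CPM, from 2514, 2812 and 3061 estimated counts. The lowest Lhx6-/- library was thus well above the highest control library. The means were 23.6 ± 3.34 CPM (SD, n = 3) and 40.0 ± 1.95 CPM (SD, n = 3), a 1.70-fold difference with a 95% interval of 1.45 to 1.98. The log2 fold change was 0.76 with a standard error of 0.10, and the adjusted p was 0.00879 in edgeR's quasi-likelihood test. Bmp2 is among the genes that the study itself picked from these same libraries, so its rise is not independent evidence. The adjusted p passed 0.05 in 15 of 22 other fits of the same data and missed it in 7, among them the fits without control replicate 3 (adjusted p = 0.0623, edgeR) and without Lhx6-/- replicate 1 (adjusted p = 0.0513, edgeR), while the log2 fold change stayed between 0.56 and 0.86.

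Bmp6, a ligand of the same group as Bmp5 and Bmp7 and best known as a regulator of iron balance, was the other ligand whose genotypes did not overlap. It lies on chromosome 13 from 38345107 to 38500302 on the plus strand. Its level was 23.9, 20.3 and 23.7 CPM in the control replicates, from 1 to 3, and 32.4, 30.0 and 26.6 CPM in the Lhx6-/- replicates. The highest control and the lowest Lhx6-/- library were close. The log2 fold change was 0.39 with a standard error of 0.10 (unadjusted p = 0.00216, adjusted p = 0.179, edgeR's quasi-likelihood test), which did not pass after adjustment, and the 95% interval of the fold was 1.13 to 1.53. Exons of Bmp6 share 224 bases with those of Txndc5, a chaperone gene on the opposite strand, and strand was not stated for the counting. Txndc5 stood at 253.5 ± 8.61 CPM in control and 278.0 ± 14.1 CPM in Lhx6-/- tissue (SD, n = 3 each), with a log2 fold change of 0.13 (adjusted p = 0.613, edgeR). Its genotypes did not overlap either, by a narrow margin. The lowest Lhx6-/- library stood at 261.9 CPM and the highest control library at 261.8 CPM. The ratio of Bmp6 to Txndc5 per exonic length was 0.108, 0.0891 and 0.112 in the control libraries. In the Lhx6-/- libraries it was 0.131, 0.132 and 0.106, so the genotypes overlapped on that ratio. A ratio of whole genes cannot show how many Bmp6 counts came from the shared bases, which was not tested.

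The 4 other ligands did not pass, and their genotypes overlapped. Bmp4, on chromosome 14 from 46383520 to 46390669 on the minus strand, stood at 62.1, 68.7 and 64.1 CPM in the control replicates, from 1 to 3, and at 58.6, 62.0 and 70.3 CPM in the Lhx6-/- replicates. Its log2 fold change was -0.03 with a standard error of 0.08 (adjusted p = 0.953, edgeR), and the interval of the fold was 0.867 to 1.11. Bmp7, a ligand of epithelia and mesenchyme on chromosome 2 from 172868012 to 172940321, stood at 87.1, 94.6 and 88.0 CPM in control and at 93.0, 84.6 and 106.6 CPM in Lhx6-/- libraries. Lhx6-/- replicate 3 held the highest value of the 6 libraries and Lhx6-/- replicate 2 the lowest. Bmp3, on chromosome 5 from 98854415 to 98884396, stood at 79.5, 93.9 and 84.0 CPM in control and at 75.96, 81.8 and 82.5 CPM in Lhx6-/- libraries. Bmp5, on chromosome 9 from 75775364 to 75900310, stood at 16.6, 19.1 and 20.2 CPM in control and at 17.6, 15.1 and 18.6 CPM in Lhx6-/- libraries. The log2 fold changes were 0.08 for Bmp7, -0.10 for Bmp3 and -0.12 for Bmp5, with adjusted p-values of 0.862, 0.753 and 0.809 in edgeR. The 95% intervals of the fold ran from 0.926 to 1.2 for Bmp7, from 0.831 to 1.05 for Bmp3 and from 0.774 to 1.09 for Bmp5.

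The make-up of the ligand pool can be read within each library, where the scaling between libraries cancels. Bmp2 made up 8.70%, 8.95% and 7.21% of the 6 ligands' summed CPM per 1000 exonic bases in control replicates 1, 2 and 3, and 13.8%, 13.0% and 12.6% in Lhx6-/- replicates 1, 2 and 3. Bmp4 held the largest share, 36.2% ± 0.24 in control and 33.0% ± 1.6 in Lhx6-/- tissue (SD, n = 3 each), and Bmp7 held 28.0% ± 0.15 and 27.4% ± 1.57. The ratio of Bmp2 to Bmp4 per exonic length was 0.243, 0.247 and 0.199 in control libraries and 0.444, 0.385 and 0.370 in Lhx6-/- libraries. Every Lhx6-/- library stood above every control library on this ratio. The share and the ratio hold the same Bmp2 counts, so they are not separate evidence of its rise. The 6 ligands together summed to 79.9 ± 3.82 in control and 85.8 ± 5.42 CPM per 1000 exonic bases in Lhx6-/- tissue (SD, n = 3 each). These sums overlapped, with 77.0 to 84.2 in control and 81.8 to 92.0 in Lhx6-/- libraries. With 3 libraries a side, the exact permutation test of a single value cannot go below p = 0.1, so none was run on these ratios and sums.

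Among the Id genes none passed after adjustment in edgeR, DESeq2 or limma, and Id4, the 1 with an unadjusted p under 0.05 in edgeR, was the one whose genotypes did not overlap. Id4, an Id protein with roles in neural and germ line stem cells and in osteoblast differentiation, lies on chromosome 13 from 48261228 to 48266026 on the plus strand. It stood at 22.2, 30.3 and 28.5 CPM in the 3 control replicates, from 1381, 2024 and 1686 estimated counts. In the 3 Lhx6-/- replicates it stood at 21.3, 20.3 and 21.7 CPM, from 1300, 1509 and 1619 estimated counts. The Lhx6-/- libraries lay close together, and control replicate 1 was nearly level with the highest of them. The means were 27.0 ± 4.26 and 21.1 ± 0.76 CPM (SD, n = 3 each), a log2 fold change of -0.36 with a standard error of 0.11 (unadjusted p = 0.00814, adjusted p = 0.285, edgeR's quasi-likelihood test). The adjusted p of Id4 from edgeR was 0.0550 without control replicate 1 and 0.548 without control replicate 2.

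Id1, Id2 and Id3 did not pass, and their genotypes overlapped. Id3, the most abundant of them, lies on chromosome 4 from 136143497 to 136145755 and stood at 129.0, 125.3 and 124.9 CPM in the 3 control replicates. In the 3 Lhx6-/- replicates Id3 stood at 131.8, 123.1 and 133.3 CPM, a log2 fold change of 0.03 with a standard error of 0.07 (adjusted p = 0.931, edgeR). Id1, the Id gene most often used as a readout of BMP Smads, lies on chromosome 2 from 152736251 to 152737410. It stood at 56.0, 56.7 and 57.6 CPM in control and 55.7, 51.8 and 59.4 CPM in Lhx6-/- libraries, a log2 fold change of -0.03 with a standard error of 0.07 (adjusted p = 0.950, edgeR). The SD of its 3 control libraries was 1.41% of their mean, below the counting error of 1.71% in the library with its lowest count. The Lhx6-/- libraries spread over both sides of the control libraries. Id2, on chromosome 12 from 25093799 to 25097140, stood at 51.6, 58.3 and 53.7 CPM in control and 52.6, 54.5 and 64.7 CPM in Lhx6-/- libraries, a log2 fold change of 0.07 with a standard error of 0.09 (adjusted p = 0.878, edgeR). The 95% intervals of the fold ran from 0.879 to 1.09 for Id1, from 0.918 to 1.2 for Id2 and from 0.927 to 1.13 for Id3.

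**Figure D3:**
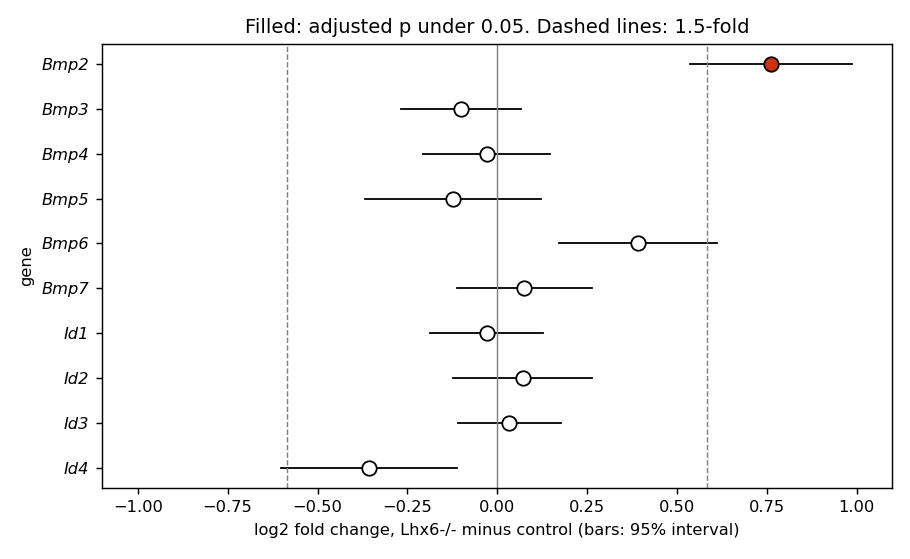
Log2 fold change of each gene, Lhx6-/- minus control (horizontal axis), with 95% intervals from edgeR. Bmp2 at 0.76 is the filled point with an adjusted p under 0.05, and the intervals of 7 genes lie inside the dashed lines at 1.5-fold in either direction.

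The size of change that the reported fit could have missed follows from its intervals, which hold for genotype alone. For 7 of the 10 members the 95% interval lay within 1.5-fold in both directions, and the other 3 were Bmp2, Bmp6 and Id4. Standard errors were larger with the cell-type covariates described further on. That of Bmp4 was 0.18 with the pericyte covariate, against 0.08 in the reported fit. The Id genes together summed to 148.9 ± 1.69 CPM per 1000 exonic bases in control and 149.2 ± 8.41 in Lhx6-/- tissue (SD, n = 3 each). Within that sum Id3 held 47.4% ± 1.33 in control and 48.5% ± 1.2 in Lhx6-/- tissue. Id4 held 3.91%, 5.22% and 4.98% in the control libraries and 3.72%, 3.73% and 3.58% in the Lhx6-/- libraries, which did not overlap.

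Upstream sequences are shown for Bmp4 and Id4, the most abundant ligand and the Id gene with the lowest ratio between genotypes, since their windows lie outside the gene bounds of the counting table. RefSeq on GRCm38.p6 gave promoters of 6 members, and Bmp2, Bmp3, Bmp7 and Id1 are named only. The 250 bases before the RefSeq start are printed from 5′ to 3′ on the strand of the gene. Capitals mark GGCGCC, the core of the BMP response element first described in Id1, which reads the same on both strands. The Bmp4 window is at chr14:46390670-46390919 on the minus strand and the Id4 window at chr13:48260866-48261115 on the plus strand.
Bmp4: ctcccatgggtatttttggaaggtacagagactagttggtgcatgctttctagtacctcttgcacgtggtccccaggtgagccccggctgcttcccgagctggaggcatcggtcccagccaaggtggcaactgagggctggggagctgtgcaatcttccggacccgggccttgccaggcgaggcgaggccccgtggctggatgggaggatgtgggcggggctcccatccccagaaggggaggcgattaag
Id4: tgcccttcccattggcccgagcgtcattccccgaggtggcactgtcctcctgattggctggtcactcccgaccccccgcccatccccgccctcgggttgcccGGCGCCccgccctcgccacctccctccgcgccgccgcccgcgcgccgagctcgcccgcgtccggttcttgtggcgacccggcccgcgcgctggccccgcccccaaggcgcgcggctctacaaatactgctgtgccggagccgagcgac
GGCGCC was present once in the window of Id4, once in that of Id2, and in none of the windows of Bmp4, Bmp5, Bmp6 and Id3. It was present in 9.59% of all 32851 windows of the same length. TAATTA, a core that LIM homeodomain proteins bind, also the same on both strands, was in none of the 6 member windows and in 4.84% of all windows. With no TAATTA there, the motifs did not overlap. These matches describe letters in the reference.

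The other genes of the pathway were described from lists by role. Of 66 genes in the table beside the members, 65 were tested, 48 were higher and 17 lower in Lhx6-/- tissue, with a median log2 fold change of 0.06. Among all 20114 tested genes 9996 were higher and 10118 lower. In edgeR 3 of the 65 pathway genes passed an adjusted p of 0.05, all higher, against 0.323% of tested genes. All 3 were secreted antagonists. Without that list, none of 44 genes passed after adjustment in edgeR, DESeq2 or limma. Of these 44 genes, 3 had an unadjusted p under 0.05 in edgeR, which 9.81% of all tested genes reached.

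**Figure D4:**
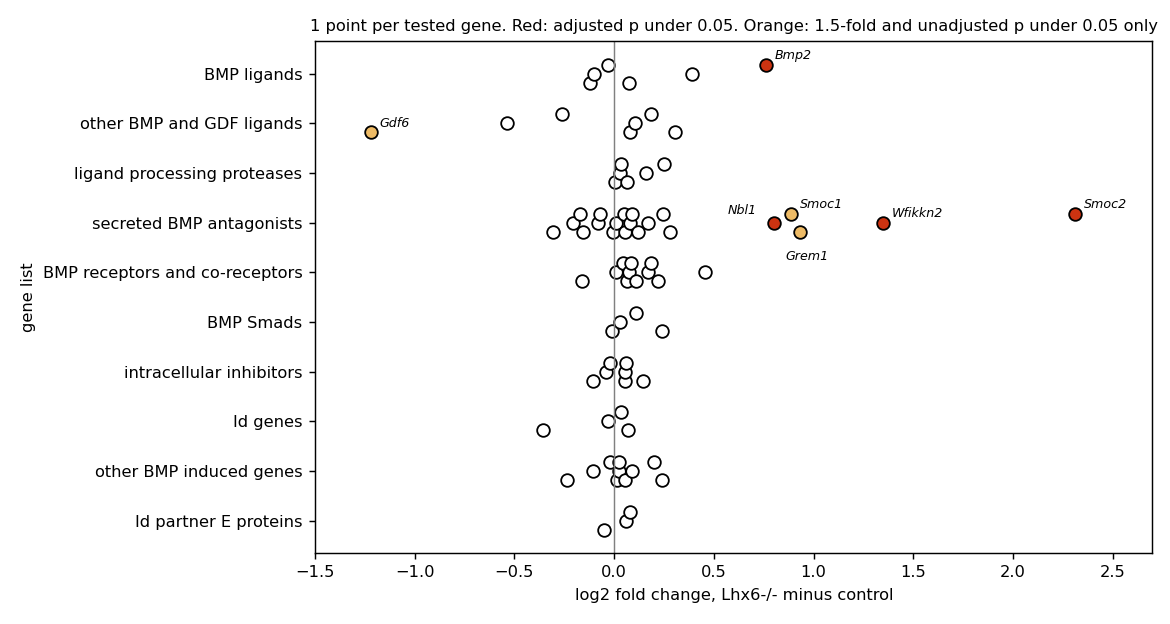
Log2 fold change, Lhx6-/- minus control (horizontal axis), of every tested gene of the pathway by list, 1 point per gene, with the genes that met the 1.5-fold rule named. The named genes are Bmp2, Gdf6 on the lower side and 5 secreted antagonists on the higher side, of which Smoc2 is farthest out at 2.31.

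Among 7 other BMP and GDF ligands tested, 1 met the 1.5-fold rule, which 3.28% of all tested genes met. Gdf6, a ligand of joints and skeletal boundaries, stood at 1.35, 1.152 and 1.84 CPM in the control replicates, from 1 to 3, and at 0.900, 0.564 and 0.403 CPM in the Lhx6-/- replicates. Its log2 fold change was -1.22 (unadjusted p = 0.00976, adjusted p = 0.299, edgeR), which did not pass after adjustment. Bmp8b, Bmp15 and Gdf7 were under 1.5 CPM in every library. Of 6 tested proteases that process BMPs or their antagonists, none met either criterion. The protease with the smallest p was Pcsk5, a proprotein convertase, with a log2 fold change of 0.25 (adjusted p = 0.204, edgeR), followed by Tll1, a tolloid-like protease, at 0.16 (adjusted p = 0.851).

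No receptor or Smad met either criterion. Of 11 receptors and co-receptors 10 had a positive and 1 a negative log2 fold change, where 9996 of 20114 tested genes were higher. Their median was 0.08. Those with the smallest p were Acvrl1, a type I receptor of endothelium, at 0.18 (adjusted p = 0.582, edgeR), and Eng, its co-receptor endoglin, at 0.17 (adjusted p = 0.585). Bmpr1b was the only listed receptor under 1 CPM in every library. Of 4 Smads, Smad9 had a log2 fold change of 0.24 (adjusted p = 0.582, edgeR) and Smad4 of 0.11 (adjusted p = 0.812). Smad1 stood at -0.01 and Smad5 at 0.03.

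The intracellular inhibitors and other BMP-induced genes were read beside the Id genes. Smad6, Smad7 and Bambi stand on both of these lists, and the other inhibitors were not listed as BMP-induced. None of 7 inhibitors met either criterion, with log2 fold changes from -0.11 to 0.14. Ski, which holds Smad complexes in a repressed state, stood at 0.14 (adjusted p = 0.558, edgeR), and Bambi, a pseudoreceptor, at -0.11 (adjusted p = 0.776). Among 10 other induced genes none passed, with a median of 0.03. Msx2, a homeobox gene of dental mesenchyme, had the smallest p of these. It stood at 75.2, 79.2 and 73.7 CPM in the control replicates, from 1 to 3, and at 61.4, 61.9 and 70.4 CPM in the Lhx6-/- replicates, with a log2 fold change of -0.24 (unadjusted p = 0.00798, adjusted p = 0.284, edgeR). The E proteins that Id proteins bind, Tcf3, Tcf4 and Tcf12, had log2 fold changes from -0.05 to 0.08, and none passed.

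Of 21 genes listed as secreted BMP antagonists, 5 met the 1.5-fold rule and all 5 were higher in Lhx6-/- tissue. Of tested genes 1.58% met it on the higher side. The count of antagonists was 2 with the endothelial and 3 with the pericyte covariate. Smoc2, Wfikkn2 and Nbl1 passed after adjustment, and Smoc1 did not. Neither did Grem1, which was low, at means of 1.03 CPM in control and 1.96 CPM in Lhx6-/- tissue. The number that passed ran from 0 to 4 over the other fits, with 2 (Nbl1 and Smoc2) without control replicate 2, 1 (Smoc2) with the endothelial or pericyte covariate and 0 with the odontoblast covariate. Smoc2, a matricellular protein, had a log2 fold change of 2.31, Wfikkn2, which binds GDF ligands, of 1.35, and Nbl1, a DAN-family antagonist, of 0.80, with adjusted p-values of 2.01e-07, 0.00879 and 0.00576 in edgeR. The study picked these 3 from the same libraries, so the list is not independent evidence of its direction. The antagonists best known for binding BMPs outside the cell, Nog and Chrd, had log2 fold changes of 0.09 and -0.01 (adjusted p = 0.921 and 0.993, edgeR).

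By pattern across the 6 libraries, whatever the level, the genes nearest to Bmp2 were Mecom, Apod, Clstn3, Vipr2 and Plxnb3. Likeness was measured as the root mean square difference of log2 CPM centred on each gene's mean, over 15120 other genes with a mean of at least 1 CPM, and ran from 0.0623 for Mecom to 0.106 for Plxnb3. All 5 were higher in Lhx6-/- tissue, with log2 fold changes from 0.59 for Vipr2 to 0.79 for Mecom. Their choice by likeness to Bmp2 fixed that direction. None of these 5 passed an adjusted p of 0.05 in edgeR, with values from 0.0519 for Apod to 0.415 for Plxnb3.

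Several other measures moved with genotype beside Bmp2, Bmp6 and Id4. Y-linked genes, 4 in number, summed to 17.4, 58.0 and 14.6 CPM in the control replicates, from 1 to 3, and to 55.1, 92.1 and 88.5 CPM in the Lhx6-/- replicates. Control replicate 2 lay above Lhx6-/- replicate 1, so the genotypes overlapped in this sum by that library. With this sum as a covariate the log2 fold change of Bmp2 was 0.56 (adjusted p = 0.0723, edgeR), that of Bmp6 was 0.62 (adjusted p = 0.0474), and that of Id4 was -0.51 (adjusted p = 0.136).

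Markers of 4 cell types summed higher in every Lhx6-/- library than in any control library. The 10 endothelial markers summed to 378.4 to 386.0 CPM in control and 426.0 to 505.2 CPM in Lhx6-/- libraries, led by Cdh5. The 6 pericyte and smooth muscle markers summed to 397.7 to 449.6 and 545.9 to 658.8 CPM, led by Rgs5. The 4 odontoblast markers summed to 4967 to 5434 and 6085 to 6780 CPM, led by Dspp, while Mepe of that list stood lower in every Lhx6-/- library (log2 fold change -0.30, adjusted p = 0.246, edgeR). The 7 dental mesenchyme markers summed to 341.5 to 370.7 and 388.7 to 414.0 CPM, led by Msx1. Msx1 itself overlapped between genotypes, with a log2 fold change of 0.03 (adjusted p = 0.955, edgeR). Of these 7 genes 6 had a positive and 1, Dlx2, a negative log2 fold change. The 6 erythroid markers were lower, at 2969 to 3701 CPM in control and 1592 to 2329 CPM in Lhx6-/- libraries, led by Hbb-bs. The 11 dental epithelium markers summed to 136266 to 146087 and 115521 to 146900 CPM, overlapping sums that are mostly Amelx. Of these 11 genes 9 had a negative log2 fold change, and Krt14, Krt5, Trp63 and Amtn were lower in every Lhx6-/- library than in any control library. Amtn, an enamel-surface protein gene, passed after adjustment with a log2 fold change of -0.54 (adjusted p = 0.0210, edgeR), while Krt14 and Krt5 met the 1.5-fold rule on the lower side. The sums for osteoblasts, periodontal ligament and follicle, immune cells, osteoclasts, skeletal muscle, nerve and glia, and cartilage overlapped between genotypes, and no listed marker was at 0 in all libraries. The cartilage sum is mostly Col2a1, which had a log2 fold change of -0.35 (adjusted p = 0.391, edgeR) and overlapped between genotypes. Of the 4 cartilage markers 3 had a positive and 1, Col2a1, a negative log2 fold change. Col9a1 of that list rose from 0.948 to 4.97 CPM in the means (log2 fold change 2.39, adjusted p = 0.00576, edgeR). The log2 fold change of Bmp2 was 0.76 with the endothelial sum as a covariate, 0.78 with the pericyte sum, 0.58 with the odontoblast sum and 0.77 with the epithelial sum, without passing in edgeR (adjusted p = 0.9996, 0.808, 0.999 and 0.0566). That of Bmp6 was 0.10, -0.01, 0.64 and 0.34 in the same fits, and that of Id4 was -0.38, -0.08, -0.06 and -0.30. The sums that separate the genotypes leave little spread within them, and the part of these cell types in the results cannot be told apart from genotype.

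**Figure D5:**
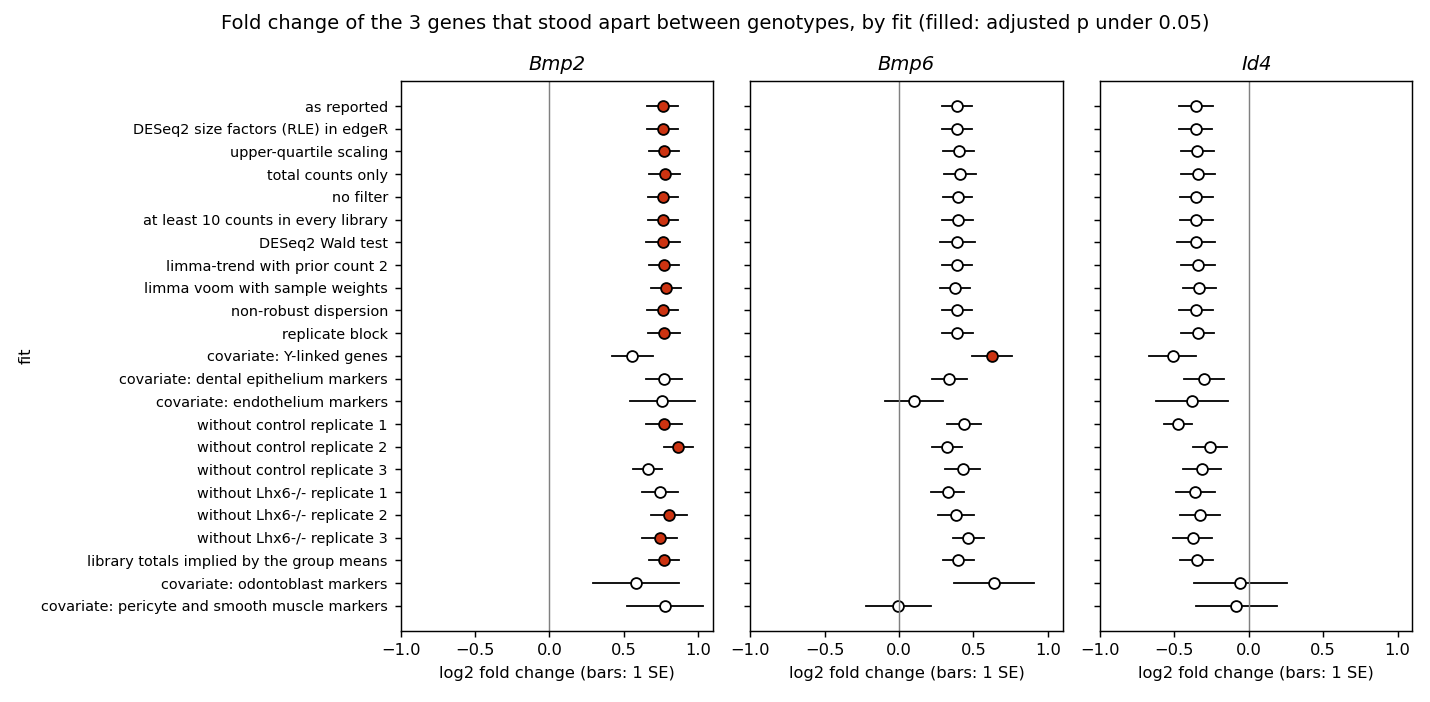
Log2 fold change (horizontal axis, bars 1 standard error) of Bmp2, Bmp6 and Id4 in the reported fit and in 22 other fits (vertical axis). Bmp2 stays between 0.56 and 0.86 and is filled, for an adjusted p under 0.05, in 15 of the others, Bmp6 is filled in 1, and Id4 in none.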

How the data were processed

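The authors trimmed single-end reads, aligned them to mm10 with STAR 2.6.1d and quantified genes. The submitters' processing notes also name Partek, and the counter's settings and strand are not given in the sources used here. The deposited count table holds estimated counts of 23594 genes in each library, not normalized. A second deposited table gives the authors' group means on a CPM scale; it was used to check the gene order of the count table (largest relative deviation 5.1e-08) and for the library totals of 1 alternative. Its columns of fold changes and p-values hold the authors' comparison and were not used. All 6 libraries of the count table were assigned through the description in each sample's labels. There the Lhx6-/- libraries carry numbers that differ by 1 from their titles, and the replicate numbers used here, also for the block, are those of the sample titles.

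Estimated counts were rounded and fitted in edgeR 4.0.16 (R 4.3.3) with TMM, edgeR's expression filter and robust dispersion, for genotype alone, two-sided. The quasi-likelihood test was adjusted by Benjamini-Hochberg over 20114 genes. Standard errors and 95% intervals were computed from the same test. CPM values are TMM-scaled, with factors from 0.977 to 1.04. The biological coefficient of variation was 0.202. Bmp2 had at least 1191 counts in a library, a counting error of at most 2.90%, under the spread between libraries. Nothing says that the pools of a group came from separate litters, so p-values measure the spread between these pools.

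The members and lists were chosen with earlier results of these data known, and 2 further listed genes are not reported here. All 10 members and Lhx6 are named, with every gene of the pathway lists that met a criterion or else the 2 with the smallest p, and the 5 genes nearest to Bmp2. Genes named outside that rule (Txndc5, Smad1, Smad5, Tcf3, Nog, Chrd, Bmp8b, Bmp15, Gdf7, Bmpr1b and marker genes) were chosen with their values known. The scripts were tested on simulated counts. Alternatives used DESeq2 1.42.0 and limma 3.58.1. Of 22 alternatives, 3 were added after seeing the data (covariates for odontoblast and pericyte markers, and library totals implied by the authors' means). Figures were drawn with matplotlib 3.10.9.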

Additional observations from a re-analysis of the deposited data

How the results depend on the processing

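Of 22 alternatives, 19 were set with the other choices and 3 were added after seeing the data. Bmp2 kept its direction in all 22. The number of members with an adjusted p under 0.05 was 1 in the reported fit and 0 with the covariates for dental epithelium, endothelium, odontoblast or pericyte markers, and ran from 0 to 1 when 1 library was left out (0 without control replicate 3 or Lhx6-/- replicate 1). With the Y-linked covariate it was 1 and that member was Bmp6. Genes with an adjusted p under 0.05 numbered 81 in the reported fit, 315 with DESeq2, 233 with the Y-linked covariate, 16 with the epithelial, 1 with the endothelial, 0 with the odontoblast and 1 with the pericyte covariate, and 12 to 127 when 1 library was left out. Genes meeting the 1.5-fold rule numbered 660, and 1174 with the Y-linked covariate.

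The study's methods speak of 3 pairs of samples but do not say which libraries form a pair. Same-numbered libraries did not deviate together (correlations 0.03, -0.03 and -0.03), and the reported fit took no pairs. The title numbers may not mark the pairs, so this check cannot show that the libraries were unpaired. With the number as a replicate block, 134 genes passed, and 1 member, Bmp2, at a log2 fold change of 0.77 (adjusted p = 0.00594, edgeR).

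Members without a call changed sign in some fits. With the Y-linked covariate the log2 fold change was -0.0132 for Bmp7 and -0.0838 for Id2. With the epithelial covariate it was 0.02745 for Bmp4 and 0.0320 for Id1. With the endothelial covariate it was 0.0208 for Bmp3, 0.225 for Bmp4 and 0.0334 for Id1. With the odontoblast covariate it was -0.199 for Bmp7, -0.2185 for Id2 and -0.0689 for Id3. With the pericyte covariate it was 0.2044 for Bmp3, 0.288 for Bmp4, -0.00699 for Bmp6 and -0.0537 for Id3. When 1 library was left out, it ran from -0.1063 to 0.0287 for Bmp4, from -0.0174 to 0.1525 for Bmp7, from -0.0777 to 0.0214 for Id1 and from -0.0257 to 0.1301 for Id2. The cause of these changes was not tested. Each covariate fit leaves 3 residual degrees of freedom.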
